A study of Mus musculus with 16 samples.

Results

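Mbp, Mog, Mag, Mobp, Cnp, Cldn11, Olig1, Olig2 and Sox10 are genes of oligodendrocytes, and they were followed here through CA1, the hippocampal subfield of the mouse brain. The 9 genes were chosen by name, with earlier results of these data known. All 9 were found by symbol among the 17986 genes with a value in every library used. Oligodendrocytes wrap axons in myelin, a stack of lipid-rich membrane that insulates the axon and speeds conduction. The transcription factors Olig1, Olig2 and Sox10 set up and keep the lineage, and they act upstream of the genes for myelin proteins. Myelin in the hippocampus is sparse beside that of the large fibre tracts, and CA1 lies directly under one of them, the alveus.

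RNA came from male mice on a C57Bl6 background, aged 3 to 6 months, which were labelled wild type (WT) or N3 -/-, here called KO-labelled. Neil3, the targeted gene, encodes a DNA glycosylase that removes oxidised bases. Home cage mice had no intervention and were killed straight from their cage. The exploration mice spent 20 min per day for 1 week in an open field with sides of 50 cm, with death 20 min after the final one. Brains were frozen without perfusion and cut at 8 µm, and CA1 was cut out under a laser dissection microscope. How its borders with the overlying white matter were drawn is not given in the sources used here. The 4 groups were WT-labelled home cage (2 libraries), KO-labelled home cage (2), WT-labelled exploration (3) and KO-labelled exploration (3). The labels list 16 samples, of which 6 were not analysed here. Values are FPKM, fragments scaled to transcript length and library depth, as the authors deposited them.

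The targeted gene went against the labels. Neil3 was listed at 0 in 4 of the 5 WT-labelled libraries and at 0.05 FPKM in the other, whereas the KO-labelled libraries had 13.77 and 15.22 FPKM in the home cage and 15.13, 11.85 and 8.35 FPKM after exploration. A value per gene does not show which exons the fragments came from. Genotype is therefore given by label throughout, and differences are KO-labelled minus WT-labelled. Libraries were alike in size, with an estimated 18900000 to 20100000 fragments and 11114 to 11623 genes at 1 FPKM or more. Markers of CA1 pyramidal neurons were measured in all libraries (9 of 9 genes, summing to 980 to 1120 FPKM). Single genes varied more than this sum, with Wfs1 at 64.88 to 238.69 FPKM and Nov at 54.14 to 248.94 FPKM. Markers of dentate granule cells summed to 4.85 to 24.66 FPKM (Prox1 at or below 0.5 FPKM, Lct at 1.06 to 22.29). The KO-labelled home cage pair was lowest for the dentate sum, at 7.92 and 4.85 FPKM against 13.09 or more in the other libraries. Markers of CA2 and CA3 summed to 140.64 to 334.31 FPKM (Rgs14 at 94.11 to 127.09, Pcp4 at 5.05 to 112.58). Markers of Schwann cells, which make myelin in peripheral nerve (Prx, Pmp2 and Ncmap), summed to at most 0.45 FPKM.

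Per length, Mbp was the most abundant of the 9 genes by a wide margin. Mbp encodes myelin basic protein, which holds the inner faces of the myelin membrane together, and its median over the 10 libraries was 160 FPKM, rank 496 of 17986 genes. Olig1 (median 15.1 FPKM) and Cnp (14.1 FPKM) came next and could not be put in order, since Olig1 was above Cnp in 5 of 10 libraries. Below them stood Cldn11 (8.02 FPKM), Mobp (5.72 FPKM), Mag (4.76 FPKM) and Mog (3.51 FPKM). Mobp was above Mag in 7 of 10 libraries, and the order of each other neighbouring pair down to Mog held in 10 of 10. Olig2 (2.295 FPKM) and Sox10 (2.235 FPKM) were the lowest and overlapped, with Olig2 above Sox10 in 4 of 10. The transcription factor Olig1 was thus measured at a level above most of the myelin genes. A gene's FPKM sums all its transcripts. RefSeq lists 8 for Mbp, whose gene also holds the Golli unit that neurons and other cells use. Mobp has 3, Cnp has 2, and the other 6 genes have 1.

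**Figure D1:**
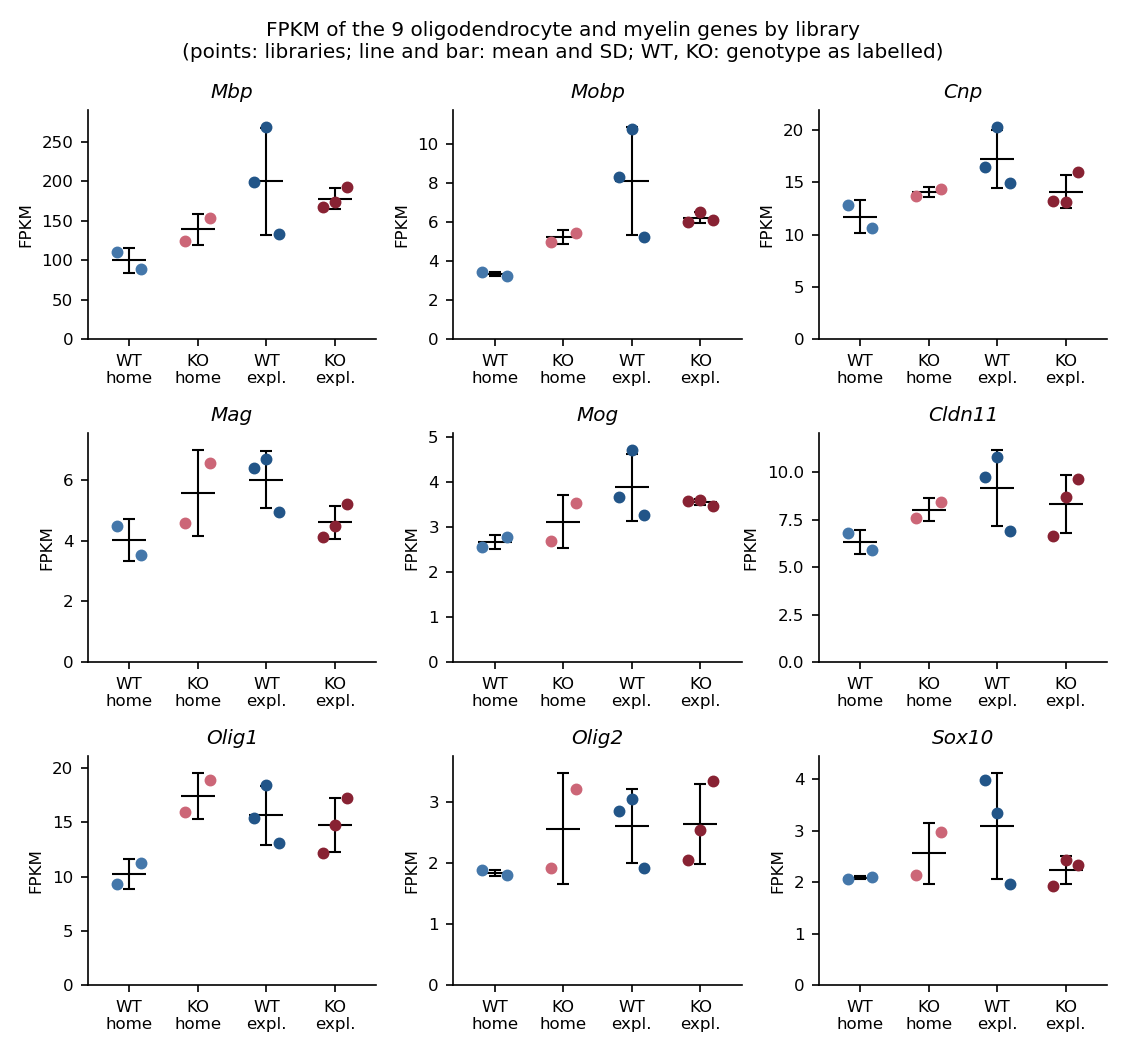
FPKM of each of the 9 genes (1 panel per gene, y axis from 0) in the 10 libraries, by group on the x axis; points are libraries, and the line and bar are the group's mean and SD. The WT-labelled home cage group has the lowest mean in 9 of 9 panels, and the third WT-labelled exploration library lies below its group's mean in 9 of 9.

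The genes varied together, and their upstream regions were searched for a motif of the lineage factor family. SOX proteins, Sox10 among them, bind a core that was searched here as ACAAAG or AACAAT, on both strands, in the RefSeq windows of 250 bases before to 50 after a start site (GRCm38.p6). These letters were settled on after other motifs had been looked at. Of 32851 windows of this length, 18.7% held ACAAAG and 10.7% held AACAAT. The table had windows for 6 of the 9 genes (Mog, Mag, Mobp, Cnp, Cldn11 and Olig2). ACAAAG was found for Mobp, Cnp and Mag (2 of its 3 windows), AACAAT for Olig2, and neither for Mog or Cldn11, and no matches overlapped. Mobp and Cnp are shown because both rose after exploration in WT-labelled mice while their counts of matches differ. Mobp had 6 matches, all on the reverse strand (CTTTGT), and Cnp had 1. Of the 32851 windows 1 reached 6 matches of ACAAAG, and that window is the one of Mobp itself. The 250 bases before each start are printed 5′ to 3′ on the plus strand, with matches in capitals, for Mobp at chr9:120149492-120149741 and for Cnp at chr11:100574689-100574938.
Mobp: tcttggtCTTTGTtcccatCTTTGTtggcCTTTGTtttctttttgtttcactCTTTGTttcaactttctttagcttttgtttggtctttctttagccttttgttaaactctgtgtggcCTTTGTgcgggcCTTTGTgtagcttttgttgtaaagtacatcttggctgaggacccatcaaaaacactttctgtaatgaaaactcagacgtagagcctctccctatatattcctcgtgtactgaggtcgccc
Cnp: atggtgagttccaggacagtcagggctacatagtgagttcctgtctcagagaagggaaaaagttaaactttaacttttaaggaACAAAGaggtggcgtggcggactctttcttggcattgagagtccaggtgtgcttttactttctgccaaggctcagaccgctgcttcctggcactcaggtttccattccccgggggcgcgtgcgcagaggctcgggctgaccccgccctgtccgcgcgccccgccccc
Counted from the start site of each window, the Mobp matches begin at positions -243 to -120 and the Cnp match at -167. The start site of the Cnp window lies inside the span of the gene, which begins at chr11:100574909. The last of the printed Cnp bases therefore fall within that span. A match of letters is a description of the sequence and does not show that a factor binds there.

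The 3 genes that were called between environments among WT-labelled mice were Mobp, Mbp and Cnp, all for proteins of compact or adjacent myelin. Mobp encodes myelin-associated oligodendrocyte basic protein, a small protein of the compact membrane (gene ID 17433, chr9:120149742-120181488 in GRCm38.p6). It had 3.42 and 3.25 FPKM in the WT-labelled home cage libraries, 4.96 and 5.46 in the KO-labelled ones, 8.31, 10.73 and 5.24 in the WT-labelled exploration libraries and 5.98, 6.52 and 6.11 in the KO-labelled ones. The exploration libraries lay above the home cage libraries within each label, and among WT-labelled mice the third exploration library was the lowest of its group. In WT-labelled mice Mobp rose after exploration by a log2 change of 1.02 (SE 0.20, limma adjusted p = 0.0126), the steepest of the 9 genes. Changes here and below are on the log2(FPKM + 1) scale.

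Mbp (gene ID 17196) had 111.03 and 88.58 FPKM in the WT-labelled home cage libraries, 124.92 and 153.27 in the KO-labelled ones, 199.63, 268.64 and 132.75 in the WT-labelled exploration libraries and 167.04, 173.84 and 192.63 in the KO-labelled ones. The highest and the lowest of the 10 values were both in WT-labelled mice, 3.03-fold apart, and the WT-labelled exploration mean of 200.3 ± 67.9 FPKM (SD, n = 3) had by far the widest spread of the 4 groups. Mbp rose after exploration in WT-labelled mice by 0.95 (SE 0.22, limma adjusted p = 0.0288). Cnp encodes the enzyme CNPase of the cytoplasm-filled channels next to compact myelin (gene ID 12799, chr11:100574909-100591875). It had 12.81 and 10.58 FPKM in the WT-labelled home cage libraries, 13.72 and 14.39 in the KO-labelled ones, 16.41, 20.25 and 14.95 in the WT-labelled exploration libraries and 13.20, 13.14 and 15.96 in the KO-labelled ones. All 3 WT-labelled exploration libraries were above both home cage libraries of that label, while the KO-labelled groups overlapped. Cnp rose in WT-labelled mice by 0.51 (SE 0.13, limma adjusted p = 0.0390).

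Mag, Mog and Cldn11 encode membrane proteins with set places in the sheath. Mag, the myelin-associated glycoprotein at the face toward the axon (gene ID 17136, chr7:30899175-30914922), had 4.50 and 3.53 FPKM in the WT-labelled home cage libraries, 4.57 and 6.57 in the KO-labelled ones, 6.39, 6.69 and 4.95 in the WT-labelled exploration libraries and 4.13, 4.48 and 5.21 in the KO-labelled ones. For Mag the second KO-labelled home cage library was above 2 of the 3 WT-labelled exploration libraries, and the first was near the WT-labelled home cage pair. Mog, myelin oligodendrocyte glycoprotein of the outermost surface (gene ID 17441, chr17:37010740-37023398), had 2.56 and 2.78 FPKM, 2.70 and 3.54, 3.68, 4.71 and 3.27, and 3.59, 3.61 and 3.48 in the same order of groups. Both WT-labelled home cage libraries were below all 6 exploration libraries for Mog, and the KO-labelled exploration libraries were tightly grouped at 3.56 ± 0.07 FPKM (SD, n = 3). Cldn11, the claudin that forms the tight junctions of the sheath (gene ID 18417, chr3:31149920-31164326), had 6.78 and 5.89 FPKM, 7.59 and 8.45, 9.73, 10.82 and 6.93, and 6.66, 8.71 and 9.66 in that order. Its KO-labelled exploration libraries spanned the KO-labelled home cage pair, with the first of them lowest.

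Of the transcription factors, Olig1 stood apart in the home cage. Olig1 is a basic helix-loop-helix factor of the lineage (gene ID 50914, chr16:91269769-91271939), and it had 9.28 and 11.23 FPKM in the WT-labelled home cage libraries, 15.92 and 18.93 in the KO-labelled ones, 15.44, 18.47 and 13.07 in the WT-labelled exploration libraries and 12.22, 14.79 and 17.24 in the KO-labelled ones. The WT-labelled home cage pair was below the other 8 libraries, which overlapped among themselves. Olig2, its partner in the family that specifies the lineage (gene ID 50913, chr16:91225550-91228677, with 41091 bases between the genes), had 1.88 and 1.81 FPKM, 1.92 and 3.21, 2.85, 3.05 and 1.92, and 2.05, 2.54 and 3.34 in the same order. Sox10, a high mobility group factor that activates myelin genes (gene ID 20665, chr15:79154913-79164490), had 2.07 and 2.11 FPKM, 2.14 and 2.98, 3.98, 3.34 and 1.97, and 1.93, 2.44 and 2.33. In both genes the second KO-labelled home cage library was well above the first, and the third WT-labelled exploration library was as low as home cage libraries. At this depth an estimated 83 to 156 fragments stood behind each value of Olig2 and 99 to 208 behind each of Sox10, a counting error of 11% to 8.0% and of 10.1% to 6.9%.

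Exploration was compared with the home cage first among WT-labelled mice, to ask whether a week of open field sessions went with a difference in these genes. All 9 were higher, with a median log2 change of 0.48, against -0.02 over the 11892 genes tested. Mobp, Mbp and Cnp rose (3 of 9 at a limma adjusted p under 0.05, where 6.31% of all genes tested were called, 2.02% higher and 4.29% lower). The other 6 did not pass: log2 changes were 0.56 for Olig1 (limma adjusted p = 0.0578), 0.48 for Mag (adjusted p = 0.0960), 0.45 for Cldn11 (0.140), 0.40 for Mog (0.0993), 0.37 for Sox10 (0.270) and 0.33 for Olig2 (0.344). For 8 genes, all but Sox10, every exploration library was above every home cage library, which held for 19.7% of all genes tested, and the reverse for 28.1%. For Olig2 (1.92 against 1.88 FPKM) and Cldn11 (6.93 against 6.78 FPKM) the gap between the nearest libraries was smaller than the counting error. The 9 genes also varied together, so these separations are not independent of each other. In tissue, fewer cells of a type and less RNA per cell cannot be told apart, and each environment sits in its own deposited table, so environment and table cannot be told apart either. Markers of red blood cells moved with the environment as well: 3 of 4 rose in WT-labelled mice, and their sum was 94.9 to 154 FPKM in the WT-labelled home cage and 228 to 308 FPKM after exploration; their part in the result was not tested.

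These calls rested on few libraries. Mobp was no longer called without either WT-labelled home cage library or the first WT-labelled exploration library (log2 change 0.98 to 1.05), and Mbp without either of that home cage pair or the first or second WT-labelled exploration library (0.71 to 1.11). Cnp was lost without any of those 4 or the second KO-labelled exploration library, and the log2 change went from 0.39 to 0.64. No choice of scaling turned the sign of any of the 9 genes in this comparison.

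Among KO-labelled mice the same comparison gave no call. Of the 9 genes 5 were higher and 4 lower after exploration, with a median log2 change of 0.04 (-0.04 over all genes tested). In limma 0 of 9 were called, where 28.6% of all genes tested were called, 12% higher and 16.6% lower. At an unadjusted limma p under 0.05 were 0 of the 9 genes, against 4945 of all 11892 genes tested. The changes ran from -0.23 for Olig1 (95% interval -0.58 to 0.11) to 0.36 for Mbp (-0.13 to 0.84, limma adjusted p = 0.244), so that a rise of Mbp as large as 0.84 remained within the interval. Mobp changed by 0.21 (-0.21 to 0.64). For Mbp and Mobp every KO-labelled exploration library was above both home cage libraries, which held for 22.2% of all genes tested, and the reverse for 29.9%. Under median-of-ratios size factors 6 genes were higher, and under quantile normalization 7. Markers of CA2 and CA3 moved in this comparison: 7 of the 8 tested were higher (median 1.21), with 4 called higher and 1 lower. Their sum was 140.64 to 152.73 FPKM in the KO-labelled home cage and 205.45 to 334.31 FPKM after exploration. Markers of CA1 pyramidal neurons moved in both directions: 3 of 9 were higher and 6 lower (median -0.40), with 2 called higher and 5 lower. The part of these markers in the result was not tested.

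Averaged over the labels, exploration libraries had higher values of all 9 genes, with a median log2 change of 0.25 (-0.03 over all genes tested). Mobp rose by 0.62 (SE 0.14, limma adjusted p = 0.00703), Mbp by 0.65 (SE 0.16, adjusted p = 0.00963) and Mog by 0.28 (SE 0.10, adjusted p = 0.0441), so 3 of 9 were called, where 31.9% of all genes tested were called, 12.6% higher and 19.2% lower. Cnp, called among WT-labelled mice, stood at 0.26 (limma adjusted p = 0.0514). The call of Mobp held without each library in turn, and that of Mbp was lost without the second WT-labelled home cage library (log2 change 0.57, limma adjusted p = 0.0513). That of Mog was lost without any library other than the second KO-labelled home cage and the third WT-labelled exploration library (0.20 to 0.30).

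The difference between the labels in the response to exploration was tested directly. It was negative for all 9 genes, with a median of -0.52 (0.00 over all genes tested), which is to say a smaller change in the KO-labelled mice. None passed limma's threshold (0 of 9, where 0.875% of all genes tested were called, 0.362% higher and 0.513% lower). At an unadjusted limma p under 0.05 were 4 of the 9 genes, against 1915 of all 11892 genes tested. Olig1 had -0.79 (95% interval -1.28 to -0.31, limma adjusted p = 0.0995), Mag -0.70 (-1.19 to -0.20, adjusted p = 0.147), Mobp -0.81 (-1.41 to -0.20, adjusted p = 0.167) and Cnp -0.52 (-0.92 to -0.11, adjusted p = 0.186). Mbp, with its wide spread, had -0.59 (-1.28 to 0.09, adjusted p = 0.384). Without the third WT-labelled exploration library Mobp passed (-1.06, limma adjusted p = 0.0434). The comparisons share groups, so they are not independent of each other.

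**Figure D2:**
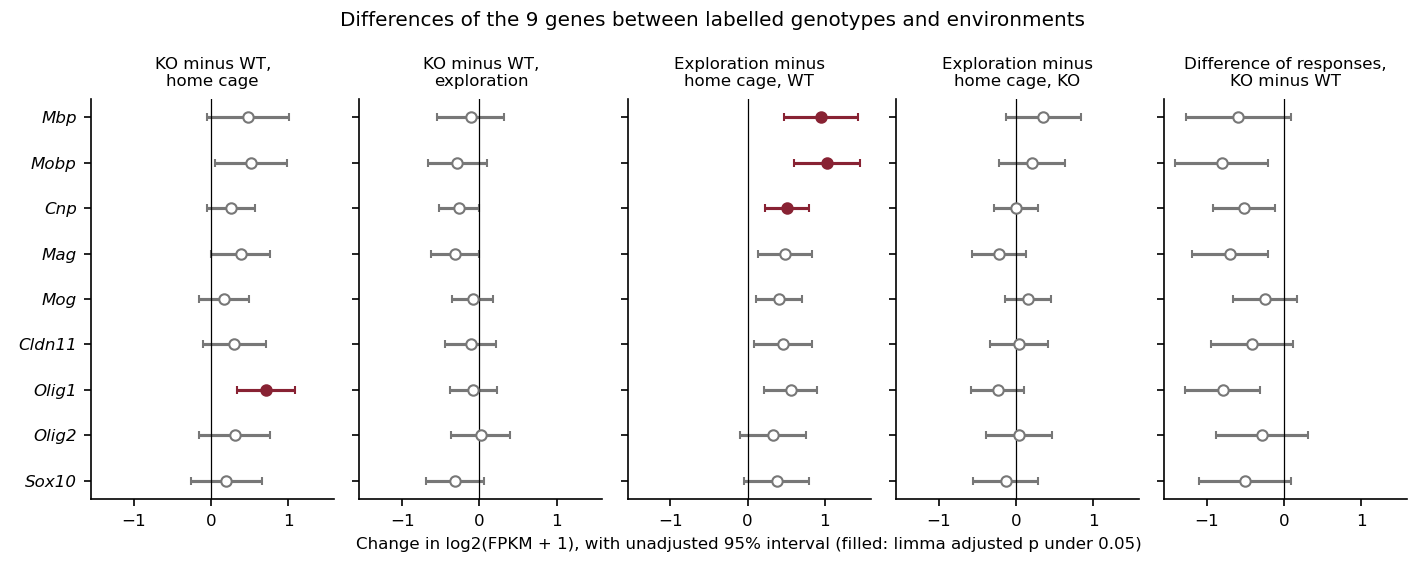
Log2 change of each of the 9 genes (on log2(FPKM + 1)) with its 95% interval, in 5 panels for genotype in each environment, exploration under each label, and the difference between the labels in the response to exploration; filled points passed a limma adjusted p under 0.05. In WT-labelled libraries all 9 changes after exploration are above 0 and Mobp, Mbp and Cnp are called, and in KO-labelled libraries all 9 intervals cross 0.

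Genotype was compared within each environment. In the home cage all 9 genes were higher in the KO-labelled pair, with a median log2 change of 0.30 (-0.02 over all genes tested). Olig1 rose by 0.71 (SE 0.17, limma adjusted p = 0.0447), the 1 call among 9, where 3.57% of all genes tested were called, 2.12% higher and 1.45% lower. Mobp was higher by 0.52 (SE 0.21, adjusted p = 0.222), Mbp by 0.48 (SE 0.24, adjusted p = 0.326) and Mag by 0.38 (SE 0.17, adjusted p = 0.275), and the other 5 by 0.16 to 0.30. For 8 genes, all but Mog, both KO-labelled libraries were above both WT-labelled ones, which held for 21.0% of all genes tested, and the reverse for 25.9%. For Olig2 (1.92 against 1.88 FPKM), Sox10 (2.14 against 2.11) and Mag (4.57 against 4.50) the gap between the nearest libraries was smaller than the counting error. The 9 genes also varied together, so these separations are not independent of each other. The call of Olig1 was lost without any of the 4 home cage libraries, the first WT-labelled or the second KO-labelled exploration library, with log2 changes of 0.59 to 0.84. The second KO-labelled home cage library, with the highest Olig1 value of all, also had the highest sum of meningeal and fibroblast markers. It was 122.03 FPKM against 44.35 to 51.63 in the other 3 home cage libraries. Only 2 of these 7 markers were tested. Over all libraries Ptgds was at 35.31 to 92.58 FPKM and Dcn at 0.2 to 27.24 FPKM, while Lum, Col1a1, Col1a2 and Col3a1 were at or below 0.37 FPKM. The part of these markers in the result was not tested.

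After exploration the direction was the other way for most of the genes. KO-labelled libraries were lower for 8 and higher for Olig2 (0.01), with a median log2 change of -0.12 (-0.01 over all genes tested). In limma 0 of 9 were called, where 0.597% of all genes tested were called, 0.193% higher and 0.404% lower. At an unadjusted limma p under 0.05 were 2 of the 9 genes, against 2046 of all 11892 genes tested. Those 2 were Mag at -0.32 (95% interval -0.63 to -0.01, limma adjusted p = 0.282) and Cnp at -0.26 (-0.52 to -0.01, adjusted p = 0.275). The libraries of the labels overlapped for all 9 genes, where separation was seen for 11.4% of genes tested with the KO-labelled libraries higher and 13.5% with them lower. Averaged over environments, 7 of the 9 were higher in KO-labelled libraries (8 under size factors or quantile normalization), with a median of 0.09 (-0.01 over all genes tested). limma called 0 of 9 there, where 2.13% of all genes tested were called, 0.774% higher and 1.35% lower. Olig1 was the 1 gene of the 9 at an unadjusted p under 0.05 (0.32, limma adjusted p = 0.139), against 2399 of all 11892 genes tested.

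The 9 genes moved together from library to library as well as between groups. Over the 10 libraries the 36 pairs had a Pearson correlation of log2 levels of 0.605 to 0.964 (median 0.766), which holds the differences between groups. After each group's mean was taken off, the 36 correlations were 0.421 (Cnp and Sox10) to 0.935 (Mbp and Mobp), with a median of 0.757, and all were positive. These are descriptions of 10 libraries whose values share a library's RNA, scaling and dissected area. The second WT-labelled exploration library had the highest value of all 10 for 6 genes and the second WT-labelled home cage library the lowest for 6. Summed over the 9 genes, the libraries had 154.33 and 129.76 FPKM in the WT-labelled home cage, 178.44 and 216.8 in the KO-labelled home cage, 266.42, 346.7 and 185.05 in WT-labelled exploration and 216.8, 230.07 and 255.96 in KO-labelled exploration. Most of each sum is Mbp.

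Ratios between the genes take out what all of them share in a library. These were chosen after the values had been seen and have no test. Mbp to Cnp was 8.37 to 10.7 in the 4 home cage libraries and 12.07 to 13.3 in 5 of the 6 exploration libraries, of both labels. The third WT-labelled exploration library, at 8.88, lay within the home cage range. Mobp to Cnp was 0.267 to 0.379 in the home cage and 0.351 to 0.53 after exploration, so the ranges overlapped through that same library. Mag to Cnp showed no such shift, at 0.333 to 0.457 in the home cage and 0.313 to 0.389 after exploration. Mbp and Mobp, both basic proteins of compact myelin, kept a ratio of 24 to 32.5 over all libraries.

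**Figure D3:**
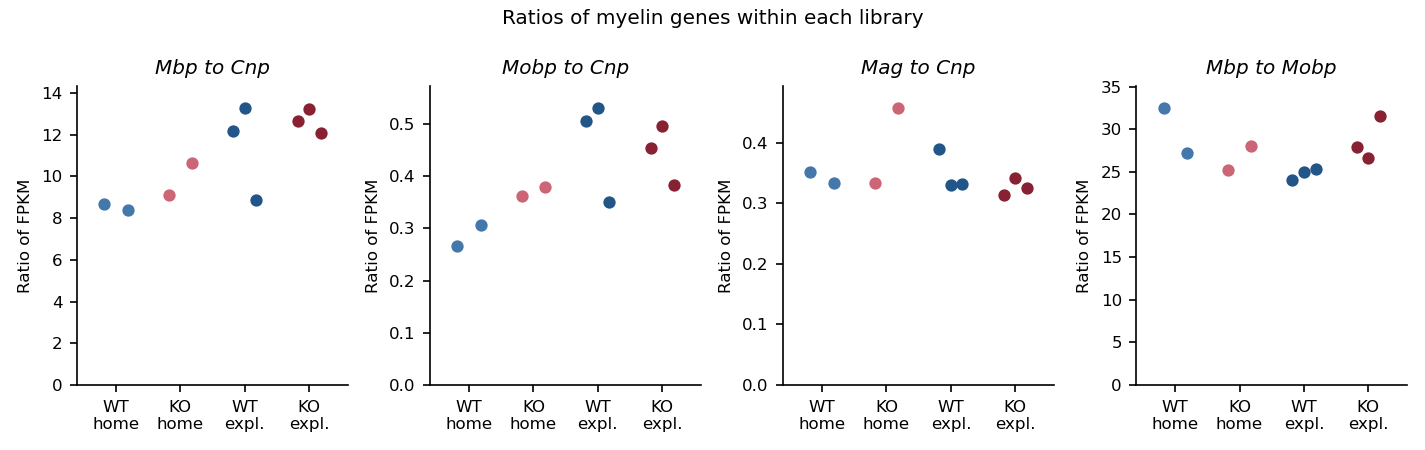
Ratio of FPKM values within a library (y axis) for pairs of the 9 genes, by group on the x axis; points are libraries. For Mbp to Cnp, 5 of the 6 exploration libraries lie at 12.07 or more and the home cage libraries at or below 10.7, with the third WT-labelled exploration library at 8.88.

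Other genes of mature oligodendrocytes and myelin, from a list of 40 of which 35 were tested, showed a mixed picture. In WT-labelled mice 8 rose and 0 fell after exploration (median 0.23), where 2.02% of all genes tested were called higher and 4.29% lower. Opalin, a membrane glycoprotein of oligodendrocytes, went from 1.69 and 1.99 FPKM to 4.31, 4.10 and 4.13, a log2 change of 0.87 (limma adjusted p = 0.00417). All 3 exploration libraries were above the home cage pair for Opalin. Ppp1r14a (0.95), Plekhb1 (0.77) and Pllp (0.69) rose too. The call of Opalin held without each library in turn, that of Ppp1r14a was lost without any of the 5 WT-labelled libraries or the second KO-labelled exploration library (0.74 to 1.16), that of Pllp was lost without the second WT-labelled home cage library (0.55), and that of Plekhb1 without either of that pair or the first WT-labelled exploration library (0.76 to 0.79). In KO-labelled mice 4 of the 35 rose and 6 fell (median -0.02), a share like the 28.6% called over all genes tested. Tspan2, a tetraspanin of the oligodendrocyte surface, fell there by 0.82 (limma adjusted p = 0.00439), a call that was lost without the second KO-labelled home cage library (-0.59).

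Single genes of that list moved by more than any of the 9. Ndrg1, a cytoplasmic protein whose loss causes a demyelinating neuropathy, had 3.27 and 5.61 FPKM in the WT-labelled home cage, 27.44 and 54.45 in the KO-labelled home cage, 9.82, 7.29 and 4.58 in WT-labelled exploration and 12.64, 4.60 and 5.36 in KO-labelled exploration. Its KO-labelled home cage pair was above all other libraries, and the change there was 2.90 (SE 0.43, limma adjusted p = 0.0100). Ndrg1 is also expressed by other cells. In the home cage 4 genes of the list rose and 1 fell in the KO-labelled pair (median 0.15), where 3.57% of all genes tested were called: Cmtm5 rose by 0.69 and Gal3st1, the sulfotransferase of myelin sulfatide, by 0.68, while Enpp2 fell by 1.42. Enpp2 encodes autotaxin, which choroid plexus also makes, and its highest value (41.87 FPKM) was in the first WT-labelled home cage library. Choroid plexus and ependymal markers summed there to 235.98 FPKM, against 9.91 to 18.4 in the other 3 home cage libraries. That sum varied mainly through Ttr, at 0.04 to 218.7 FPKM over all libraries. The part of these markers in the change of Enpp2 was not tested. Car2, the carbonic anhydrase of oligodendrocytes and other glia, went from 37.22 and 30.51 FPKM to 69.66, 80.38 and 78.11 after exploration in KO-labelled mice, a change of 1.15 (limma adjusted p = 8.70e-05). The call of Ndrg1 in the home cage was lost without the first WT-labelled or second KO-labelled home cage library (2.42 to 2.59), that of Enpp2 without either of them or 4 others (-1.43 to -0.71, without the first WT-labelled library -0.71), while that of Car2 in KO-labelled mice was kept without each of the 10. After exploration Car2 was also the 1 gene of the 35 that was called between the labels, higher in KO-labelled mice by 0.44 (limma adjusted p = 0.0441), a call that was lost without any of 7 libraries and under both other scalings.

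Lineage transcription factors other than the 3 among the 9 genes did not move as one (15 in the table, 10 tested). Zfp488, a zinc finger co-regulator of Olig2, had 22.42 and 25.82 FPKM in the WT-labelled home cage, 15.90 and 15.38 in the KO-labelled home cage, 8.16, 8.15 and 8.65 in WT-labelled exploration and 9.57, 9.56 and 7.46 in KO-labelled exploration. All 6 exploration libraries were below all 4 home cage libraries, with changes of -1.43 (limma adjusted p = 3.09e-05) in WT-labelled and -0.76 (adjusted p = 0.00163) in KO-labelled mice. Zfp488 was the 1 called gene of the 10 in WT-labelled mice, and its direction was opposite to that of Mobp, Mbp and Cnp. Zfp488 was highest in the WT-labelled home cage, the group where all 9 genes had their lowest mean. It stood there far above Olig2 (1.88 and 1.81 FPKM) and Sox10 (2.07 and 2.11 FPKM). Which cells its RNA came from was not tested. In the home cage the KO-labelled pair was higher in Sox8 (1.12), which is related to Sox10, in Hes5 (0.94), a Notch target that holds precursors back, and in Sox5 (0.84), which acts against Sox10, and lower in Zfp488 (-0.59); these 4 of 10 were called, where 3.57% of all genes tested were. In KO-labelled mice 5 of the 10 fell after exploration and 0 rose, where 16.6% of all genes tested were called lower and 12% higher. They included Hes5 (-1.33), Sox8 (-1.13), Sox5 (-0.85) and Myrf (-0.50, limma adjusted p = 0.0213). Myrf, the factor that switches on the myelin genes in maturing oligodendrocytes, had 2.98 and 4.22 FPKM in the KO-labelled home cage and 2.12, 2.13 and 2.42 after exploration. In WT-labelled mice Myrf changed by 0.04 (adjusted p = 0.907). The calls of Zfp488 after exploration, and those of Hes5, Sox8 and Sox5 in KO-labelled mice, held without each library in turn. That of Myrf was lost without the second KO-labelled library of either environment (-0.31 and -0.48), and the 4 home cage calls were lost without the first WT-labelled or second KO-labelled home cage library.

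The defining genes of oligodendrocyte precursors were low. Pdgfra, the growth factor receptor that defines precursors, was at 0.32 to 0.99 FPKM and Cspg4, their NG2 proteoglycan, at 0.15 to 0.63 FPKM, so both missed the minimum for testing (1 FPKM in 2 libraries). Of the 21 genes of precursors and newly formed cells in the table, 12 were tested, among them Fyn at 34.07 to 42.64 FPKM and Cspg5 at 15.66 to 24.82 FPKM, which neurons or astrocytes also express. In the home cage 2 rose in the KO-labelled pair, Xylt1 (0.70) and Cspg5 (0.51), where 2.12% of all genes tested were called higher. In KO-labelled mice 3 fell after exploration, Xylt1 (-0.79), Tnr (-0.58) and Fyn (-0.25), the kinase that links axonal contact to local Mbp synthesis, a share near the 28.6% called over all genes tested. All 3 calls were lost without the second KO-labelled home cage library, where Tnr changed by -0.28, and that of Tnr also without the first KO-labelled exploration library (-0.50). In WT-labelled mice 0 of 12 were called by limma after exploration. At an unadjusted limma p under 0.05 were 4 of the 12, against 2702 of all 11892 genes tested.

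Of the enzymes of myelin lipid synthesis (30 in the table, 29 tested), 1 was called after exploration in WT-labelled mice and 2 in KO-labelled mice, all lower, where 6.31% and 28.6% of all genes tested were called. Elovl1, which extends very long fatty acids, fell after exploration in both labels, by 0.77 in WT-labelled (limma adjusted p = 0.0103) and by 0.78 in KO-labelled mice (adjusted p = 0.00352), from 3.06 to 4.06 FPKM over the home cage libraries to 1.17 to 2.10 FPKM. Gal3st1 fell by 0.52 in KO-labelled mice. Averaged over the labels, Aspa (0.43), Scd1 (0.38) and Pmvk (0.22) rose and Elovl1 fell, where 31.9% of all genes tested were called. Genes of contact between axon and glia (20 in the table, 13 tested) gave 1 higher and 6 lower calls after exploration in KO-labelled mice, where 12% of all genes tested were called higher and 16.6% lower. Nrcam (-0.59) and Cntn2 (-0.51), adhesion proteins at and beside the node of Ranvier, fell, as did the receptor Adgrg1 (-1.0), which keeps precursors dividing, while Rtn4, the growth inhibitor Nogo, rose by 0.60. Averaged over the labels, Nfasc, the neurofascin of nodes and paranodes, fell by 0.36 (limma adjusted p = 0.00919), a call that was lost without the second KO-labelled home cage library (-0.28). In the home cage Adgrg1 was higher in the KO-labelled pair by 1.18 and Gpr37l1, a receptor mainly of astrocytes, by 0.50, and Gpr37l1 was also the 1 gene of the 13 called in WT-labelled mice after exploration (0.42). The call of Adgrg1 in the home cage was lost without either WT-labelled or the second KO-labelled home cage library (0.88 without the latter). That of Gpr37l1 after exploration was lost without either WT-labelled home cage library, the first or second WT-labelled or the second KO-labelled exploration library (0.33 to 0.50), and in the home cage without any of these or either KO-labelled home cage library (0.42 to 0.59).

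Markers of other glia and of vessels were, like the 9 genes, lowest in the WT-labelled home cage. Astrocyte markers (10 of 10 tested) summed to 121 to 122 FPKM in the WT-labelled home cage, 159 to 180 in the KO-labelled home cage, 138 to 166 in WT-labelled exploration and 171 to 187 in KO-labelled exploration. Microglia markers (10 of 10 tested) summed to 65.5 to 72.5 FPKM, 87.6 to 94.6, 85.1 to 102 and 91.9 to 104 in the same order. Endothelial markers (6 of 10 tested) summed to 38.1 to 40.1, 44.3 to 51.4, 42.7 to 49.6 and 46.2 to 51.3 FPKM. In each of the 3 lists the WT-labelled home cage libraries were below all the others. The same held for Mbp, Mobp, Cnp, Olig1 and Olig2 and for the sum of the 9 genes. The gap was small for Cnp (12.81 against 13.14 FPKM) and Olig2 (1.88 against 1.92 FPKM). In the home cage 2 astrocyte, 2 microglia and 1 endothelial marker rose in the KO-labelled pair, and in WT-labelled mice 3 astrocyte, 4 microglia and 0 endothelial markers rose after exploration, where 2.12% and 2.02% of all genes tested were called higher. Interneuron markers were higher after exploration in WT-labelled mice too, for 10 of 10 (median 0.20, 1 called). Their sum was 1786.24 to 1898.19 FPKM in the WT-labelled home cage and 2016.57 to 2391.73 FPKM in WT-labelled exploration. Most of that sum is Cck, at 1236.41 to 2088.25 FPKM over all libraries, and Sst came next at 56.78 to 148.38 FPKM. The sum therefore mainly follows 1 gene. Between the labels in the home cage, 4 interneuron markers were higher and 6 lower. After exploration the labels differed otherwise: 8 of the 9 genes were lower in KO-labelled libraries (median -0.12), whereas 9 of 10 astrocyte (median 0.20), 8 of 10 microglia (0.04) and 5 of 6 endothelial markers (0.03) were higher. None of these markers was called by limma. At an unadjusted limma p under 0.05 were 4 astrocyte, 0 microglia and 1 endothelial marker, against 2046 of all 11892 genes tested. Within groups, a library's deviation in the 9 genes and in these lists had a Pearson correlation of 0.953 (astrocyte), 0.898 (microglia), 0.796 (endothelial), 0.355 (interneuron) and -0.476 (CA1 pyramidal) over the 10 libraries, a description of values that share each library. Choroid plexus and ependymal markers (2 of 8 tested) summed to 132.34 and 108.75 FPKM in the first and second WT-labelled exploration libraries, where the 9 genes were high, and to 16.97 FPKM in the third, where they were low, but also to 235.98 FPKM in the first WT-labelled home cage library. Of that list Ttr ran from 0.04 to 218.7 FPKM over all libraries and Kl from 8.61 to 14.7 FPKM. The others were at or below 0.84 FPKM, so the sum varied mainly through Ttr. The part of all these markers in the results was not tested.

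**Figure D4:**
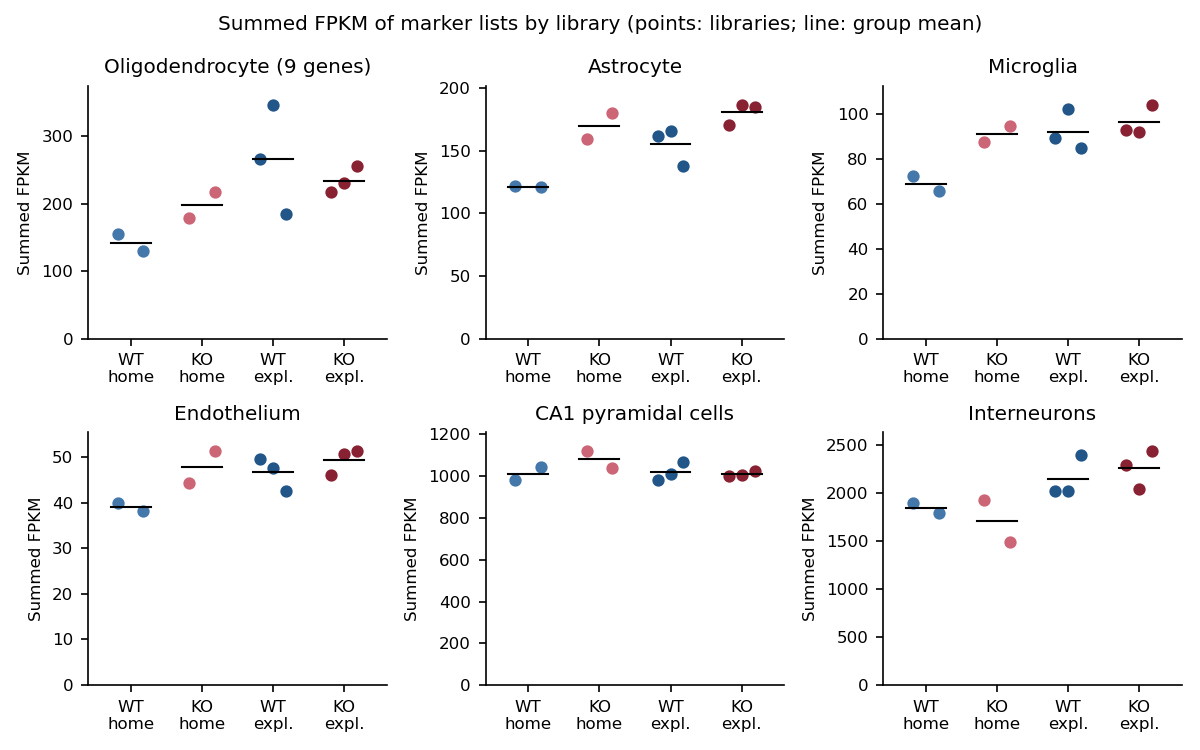
Summed FPKM of the marker genes of a cell type in each library (1 panel per list, y axis from 0), by group on the x axis; points are libraries and lines are group means. The WT-labelled home cage libraries are the lowest in the panels of the 9 oligodendrocyte genes, astrocytes, microglia and endothelium. Most of the interneuron sum is Cck.

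Among the 11883 genes tested outside the 9, those whose pattern over the 10 libraries was close to the mean of the 9 included Vim (Pearson correlation 0.943), an intermediate filament gene of astrocytes and vessels, and Mid1ip1 (0.911), a regulator of lipid synthesis. Cryab (0.906), a small heat shock protein of oligodendrocytes and astrocytes, and Timp4 (0.905), a metalloproteinase inhibitor, were close as well. With the group means taken off, the closest were Slc39a9 (0.998), Mon2 (0.992), Tap2 (0.988) and Srfbp1 (0.975), none of which was among the 4 close in level. With 10 libraries and this many genes, high values are found for some genes in any case, and the correlations carry no test.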

How the data were processed

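Bulk RNA of laser-dissected CA1 was sequenced as paired reads of 100 bp, per the labels. The authors deposited FPKM per gene and library in 2 blocks, with 19156 genes for the exploration libraries and 18257 for the home cage libraries. The submitters' processing notes name HISAT, StringTie, GATK, Bowtie2, RSEM, GRCm38 and mm10, without roles. Whether the blocks were normalized together and whether strand was used are not given in the sources used here, so antisense or overlapping genes are uncertain. The blocks were joined on the gene ID (17986 genes). No count test was run, since the values used are FPKM, from which fragment numbers were only estimated.

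The 9 genes and all lists were chosen with earlier results of these data known. All 10 libraries were fitted together in limma 3.58.1 (R 4.3.3) on log2(FPKM + 1), with 1 mean per group and a variance trend (6 residual and 5.71 prior degrees of freedom). The 11892 genes that reached 1 FPKM in 2 or more libraries were tested. Adjusted p-values are Benjamini-Hochberg values over all genes tested in each of 7 comparisons, and calls are at adjusted p under 0.05. A log2 change on this scale understates that of low genes. Intervals are unadjusted. The script was tested on simulated data. Nothing in the labels says more about the libraries of a group than that they are separate samples, so p-values measure the spread between these samples.

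All 9 genes are named. From the other lists, up to 4 called genes with the largest change per list and comparison are named, and Myrf, Pdgfra and Cspg4 always. Of the genes on which this rule falls, 1 is not reported here. Fragment numbers were estimated from the steps between low FPKM values (0.08 to 0.6 FPKM) and GRCm38.p6 transcript lengths less 100 nt. The estimate assumes that low values stand for whole fragments. Counting errors cover counting only.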

Additional observations from a re-analysis of the deposited data

Results flagged for a closer look

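For 7 genes of the related lists the change after exploration differed between the labels when that difference was tested itself. All 7 had a limma adjusted p of 0.0496, just under the threshold, because the adjustment gives neighbouring ranks the same value. Ndrg1 had a difference of -2.92 on the log2 scale (KO-labelled minus WT-labelled response), Hes5 -1.39, Sox8 -1.26, Sox5 -0.978, Pllp -0.794 and Efnb3 -0.664, and Car2 had 0.801. For Ndrg1, Hes5, Sox8 and Sox5 the KO-labelled home cage pair was above all other libraries, and for Car2 the KO-labelled home cage pair was the lowest and the KO-labelled exploration libraries the highest. None of the 7 held with a pseudocount of 0.1, with no filter on low values or with no variance trend. None held without the first WT-labelled or second KO-labelled home cage library, the first or second WT-labelled exploration library, or the second or the third KO-labelled exploration library.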

How the results depend on the processing

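Settings tried were size factors, quantile normalization, a pseudocount of 0.1, a minimum of 5 FPKM or none, a variance prior that was robust or had no trend, the compared groups alone (not for averaged comparisons or the difference in response), and leaving out each library. Of 456 log2 changes of the 9 genes under other settings 440 kept their call, 6 lost it and 10 gained it, and 5 changed sign. Without 1 library, 595 of 630 kept it, 27 lost it and 8 gained it, and 31 changed sign. No called change turned its sign. Of the changes followed for genes of the related lists, 74 of 572 under other settings and 184 of 790 without 1 library lost their call.

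The number of the 9 genes called in the home cage was 1, 0 with no filter, 0 with no variance trend and 0 to 1 without 1 library. For exploration in WT-labelled mice it was 3, 1 with no filter, 5 with quantile normalization and 0 to 4 without 1 library. Averaged over labels it was 3, 5 with quantile normalization and 1 to 5 without 1 library, and for the difference in response it was 0 and 0 to 1. In the other comparisons it was 0 under all alternatives run. The cause of these shifts was not tested.

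Over all genes the number called was 425 in the home cage (47 to 571 under other settings, 13 to 588 without 1 library), 71 after exploration (16 to 84, 17 to 104), 253 averaged (54 to 427, 28 to 319), 750 for exploration in WT-labelled mice (492 to 1710, 84 to 1004), 3400 in KO-labelled mice (1700 to 3503, 505 to 3568), 3790 averaged (2918 to 3924, 1916 to 4248) and 104 for the difference in response (0 to 136, 0 to 436). The share of calls that were higher was 42.0% for exploration in KO-labelled mice and 54.6% with size factors, 39.7% and 51.9% averaged over labels, and 36.4% for genotype averaged over environments and 50.4% with quantile normalization.

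No paired analysis was possible because the labels give no replicate numbers shared between groups. Each group had 2 or 3 libraries, and an estimated 79 fragments stood behind the lowest value of Mog, a counting error of 11.2%.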
